A study of Mus musculus with 9 samples.

Results

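The Toll-like receptor genes examined here were Tlr1, Tlr2, Tlr4 and Tlr6, whose proteins act at the cell surface, and Tlr3, Tlr7, Tlr8, Tlr9 and Tlr13, whose proteins act in endolysosomes, together with Unc93b1, which carries the endolysosomal receptors to their compartment. These 10 genes were taken as a list of symbols, with no measured value in the rule, though earlier results of these data were known when they were chosen. Each matched 1 of the 55487 Ensembl gene identifiers in the count tables through GENCODE M21. All 10 passed the filter on low counts that left 13453 genes in the tests. The samples were J774A.1 cells, a mouse macrophage line, in 3 groups of 3 libraries. The sgRNA 11 and sgRNA 15 groups each carried a different guide RNA against Slc12a9, a member of the cation-chloride cotransporter family of solute carriers, and their genotype label is SLC12A9 knockdown, while the series' design text speaks of knockout cells. The safe group carried a control guide and is labelled WT. All groups were grown with 10% serum and then kept for 6 h without serum or glutamine before RNA was taken, and the labels name no receptor ligand. Whether each guide's cells were a clone or a pool, and how Cas9 or another effector was delivered, is not given in the sources used here. The design text sets cells that lack SLC12A9 against cells with the safe guide, and the receptors were compared on that contrast.

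Toll-like receptors bind molecules of microbes and of damaged cells through a leucine-rich repeat ectodomain and signal through a cytoplasmic TIR domain. At the surface, TLR2 pairs with TLR1 or TLR6 to bind lipopeptides, and TLR4 binds lipopolysaccharide with its partner MD-2. In the endolysosome, TLR3 binds double-stranded RNA, TLR7 and TLR8 belong to the family branch that senses RNA breakdown products, TLR9 binds CpG DNA and mouse TLR13 binds bacterial ribosomal RNA. UNC93B1 escorts these nucleic acid receptors out of the endoplasmic reticulum, and lysosomal proteases then cut their ectodomains.

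The libraries held 16405296 to 25613961 reads assigned to genes, and the 10 genes had between 181 and 15097 reads each in any library. Slc12a9 mRNA had 62.6, 66.3 and 67.0 CPM (counts scaled to a common library size with TMM factors) in sgRNA 11 cells, 48.2, 50.0 and 51.7 in sgRNA 15 cells, and 44.8, 53.5 and 47.0 in safe cells. It was not lower with either guide, and all sgRNA 11 libraries lay above all sgRNA 15 and safe libraries. A gene-level count cannot show a guide's effect on the protein, so every direction below is that of the libraries labelled with each guide. The macrophage markers (Csf1r, Adgre1, Cd68, Fcgr1, Mertk, Lyz2, Spi1 and Ptprc) all had reads in every group. Their summed level was 13748 to 14015 TPM (reads per base of exon, scaled to the same total in each library) in sgRNA 11 cells, 11713 to 11929 in sgRNA 15 cells and 6815 to 6965 in safe cells. Most of that sum, and of its difference, was Lyz2, the lysozyme gene, which averaged 10545 ± 96.9 TPM in sgRNA 11 cells, 8574 ± 85.9 TPM in sgRNA 15 cells and 4023 ± 163 TPM in safe cells (SD, n = 3 each). Of these 8 markers, 7 rose and 1 fell with sgRNA 11, and 5 rose and 2 fell with sgRNA 15. Calls were common among all tested genes too, with 33.3% higher and 32.4% lower with sgRNA 11, and 32.2% and 30.7% with sgRNA 15. Cd68 fell with sgRNA 11 (408, 388 and 409 CPM, against 454, 464 and 440 CPM in safe cells). Cd68 was higher with sgRNA 15 (593, 604 and 580 CPM), and the markers that fell with sgRNA 15 were Fcgr1 and Spi1. Fcgr1 had 67.3, 70.4 and 67.2 CPM in sgRNA 15 cells and 83.5, 86.3 and 90.4 CPM in safe cells. Spi1 had 486, 480 and 508 CPM in sgRNA 15 cells and 506, 532 and 541 CPM in safe cells. In sgRNA 11 cells Spi1 had 555, 567 and 579 CPM. The T cell markers Cd3e, Cd3g and Cd8a were at 0 in all libraries. The summed levels of the T cell, dendritic cell, neutrophil and fibroblast lists (4 genes each) reached at most 0.0871, 2.27, 18.3 and 0.836 TPM in any library. The neutrophil sum, nearly all S100a8, was 13.7 to 18.3 TPM with sgRNA 11, 16.1 to 18.3 TPM with sgRNA 15 and 7.69 to 12.4 TPM in safe cells. The part of these marker shifts in the receptor results was not tested, and in bulk RNA fewer cells of a type and less RNA per cell cannot be told apart. The labels name no batch. They also do not say whether the 3 libraries of a group are separate cultures, and each p-value therefore rests on a spread between libraries that may be technical.

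Receptor mRNA changed with both guides, and the direction differed by gene. Unc93b1, Tlr3, Tlr7, Tlr8 and Tlr4 rose with sgRNA 11 and with sgRNA 15, and Tlr2 and Tlr1 fell with both. Tlr6 rose with sgRNA 11, Tlr13 rose with sgRNA 15, and Tlr9 rose slightly with sgRNA 11 and fell slightly with sgRNA 15. With sgRNA 11, 7 of the 10 genes rose, 2 fell and 1 was not called, where 33.3% of all tested genes rose and 32.4% fell (edgeR quasi-likelihood test, Benjamini-Hochberg adjusted p under 0.05). With sgRNA 15, 6 rose, 3 fell and 1 was not called, against 32.2% of all genes higher and 30.7% lower. For the mean of both guides the counts were 7 higher, 2 lower and 1 not called, against 34.7% of all genes higher and 33.3% lower. Calls in either direction were thus common across the whole transcriptome, and a call for a single gene is read against these shares. The comparisons with safe cells share the same 3 safe libraries and are not independent of each other.

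Promoter sequence was taken for 7 of the 10 genes in RefSeq (GRCm38.p6), as 9 windows of 250 bases up to the transcription start. Unc93b1, Tlr7 and Tlr4 had no window there and were not searched. The windows of 4 receptors are shown because these genes carry the main contrasts below. Tlr8 rose with both guides and more with sgRNA 11, Tlr13 and Tlr9 differed between the guides, and Tlr2 fell with both. Each is written 5′ to 3′ on the gene's strand, and capitals mark an exact match, on either strand, to one of the searched motifs.
Tlr8 (chrX:167264330-167264579, minus strand): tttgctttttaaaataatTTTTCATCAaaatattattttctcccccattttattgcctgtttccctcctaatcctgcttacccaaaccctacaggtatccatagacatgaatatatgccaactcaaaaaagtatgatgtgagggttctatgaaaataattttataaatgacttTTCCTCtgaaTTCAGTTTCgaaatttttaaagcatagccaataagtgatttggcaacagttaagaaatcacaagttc
Tlr13 (chrX:106143025-106143274, plus strand): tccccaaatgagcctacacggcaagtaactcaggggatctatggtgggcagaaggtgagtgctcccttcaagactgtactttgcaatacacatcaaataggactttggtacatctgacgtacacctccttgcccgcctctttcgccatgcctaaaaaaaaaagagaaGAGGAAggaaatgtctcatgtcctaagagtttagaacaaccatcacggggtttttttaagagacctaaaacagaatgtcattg
Tlr9 (chr9:106222348-106222597, plus strand): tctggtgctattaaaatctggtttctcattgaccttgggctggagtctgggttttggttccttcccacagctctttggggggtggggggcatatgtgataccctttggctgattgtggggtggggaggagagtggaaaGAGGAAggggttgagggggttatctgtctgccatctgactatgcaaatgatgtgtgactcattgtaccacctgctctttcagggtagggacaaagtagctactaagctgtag
Tlr2 (chr3:83841609-83841858, minus strand): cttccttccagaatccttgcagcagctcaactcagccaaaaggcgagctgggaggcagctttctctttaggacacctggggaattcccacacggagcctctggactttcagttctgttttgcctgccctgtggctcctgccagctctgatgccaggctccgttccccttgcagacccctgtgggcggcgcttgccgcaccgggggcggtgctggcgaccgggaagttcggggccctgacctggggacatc
The searched motifs were an E-box core (CACGTG), a PU.1-type ETS core (GAGGAA), an interferon response type (GAAANNGAA), an NF-kB type (GGANTTTCC) and a CARE type (TGATGNAAN), where N is any base. In the Tlr8 window the capitals are, from the 5′ end, matches on the opposite strand to the CARE type, the PU.1-type core and the interferon response type, and these do not overlap. The capitals in the Tlr13 and Tlr9 windows are the PU.1-type core, and the Tlr2 window holds no match. The PU.1-type core was in 4 of the 9 windows, those of Tlr8, Tlr9 and Tlr13 and 1 of Tlr1, and in 23.3% of all 32851 windows of the same length. The interferon response type was in 7.13% of all windows and in those of Tlr8 and Tlr6. The E-box core (6.02% of windows) was in 1 Tlr1 window, the NF-kB type (1.07%) in the Tlr3 window, and the CARE type (3.44%) in the Tlr8 window. PU.1 is the ETS factor of myeloid cells and its gene, Spi1, is among the macrophage markers above. A match describes these letters and does not show binding.

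Unc93b1 was the most abundant of the 10 mRNAs in every group and rose by more than the spread of its libraries with both guides. The gene (ENSMUSG00000036908, mm10 chr19:3935186-3949340, plus strand) encodes the polytopic membrane protein that binds endolysosomal Toll-like receptors and leads them to endolysosomes. It had 664, 645 and 681 CPM in sgRNA 11 cells, 611, 610.5 and 609 CPM in sgRNA 15 cells, and 401, 407 and 414 CPM in safe cells. All libraries of the guides lay above all safe libraries, and all sgRNA 15 libraries lay below all sgRNA 11 libraries. The change was 1.63-fold with sgRNA 11 (log2 fold change 0.71 ± 0.02 SE, edgeR adjusted p = 1.46e-43) and 1.5-fold with sgRNA 15 (0.58 ± 0.02, edgeR adjusted p = 1.44e-37). Its log2 fold change stayed between 0.54 and 0.74 with sgRNA 11 under all 18 alternatives of normalization, filter, tool and left-out library.

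Tlr8 had the largest change of the receptors with sgRNA 11, while Tlr2 changed more with sgRNA 15. The Tlr8 gene (ENSMUSG00000040522, chrX:167242696-167264329, minus strand) encodes an endosomal receptor of the TLR7 branch that senses RNA degradation products in human cells. It had 173, 162 and 167 CPM in sgRNA 11 cells, 117, 121 and 119 CPM in sgRNA 15 cells, and 87.2, 80.8 and 82.6 CPM in safe cells. The 3 groups did not overlap, with sgRNA 11 highest and safe lowest. It rose 2.00-fold with sgRNA 11 (log2 fold change 1.00 ± 0.03 SE, edgeR adjusted p = 1.29e-43) and 1.42-fold with sgRNA 15 (0.50 ± 0.04, edgeR adjusted p = 5.15e-23). Its neighbour on the same strand of the X chromosome, Tlr7 (ENSMUSG00000044583, chrX:167304929-167330558), encodes a receptor for single-stranded RNA. Tlr7 had 196, 188 and 186 CPM in sgRNA 11 cells, 204, 209 and 198 CPM in sgRNA 15 cells, and 162, 156 and 151 CPM in safe cells. All libraries of both guides were above all safe libraries, by 1.21-fold with sgRNA 11 (0.28 ± 0.03, edgeR adjusted p = 1.46e-13) and by 1.30-fold with sgRNA 15 (0.38 ± 0.03, edgeR adjusted p = 4.39e-20). Tlr8 was higher with sgRNA 11 than with sgRNA 15, and the smaller difference of Tlr7 between the guides, which did not hold under all alternatives, is given below.

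Tlr3 (ENSMUSG00000031639, chr8:45395665-45411080, minus strand), the receptor gene for double-stranded RNA, rose by a similar factor with both guides from a low level. It had 21.3, 20.03 and 19.7 CPM in sgRNA 11 cells, 18.8, 22.4 and 21 CPM in sgRNA 15 cells, and 15.3, 16.6 and 15.98 CPM in safe cells. No library of either guide overlapped the safe libraries, and the libraries of the guides overlapped each other. The rise was 1.28-fold with sgRNA 11 (log2 fold change 0.35 ± 0.08 SE, edgeR adjusted p = 4.52e-05) and 1.31-fold with sgRNA 15 (0.38 ± 0.08, edgeR adjusted p = 1.13e-05). A gene on the opposite strand, Gm45542, covers 7.32% of the Tlr3 exon length, and the strand setting of the counting is not given in the sources used here.

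Tlr13 rose with sgRNA 15 and was not called with sgRNA 11. Tlr13 (ENSMUSG00000033777, chrX:106143204-106160493, plus strand) encodes the mouse receptor for a sequence in bacterial ribosomal RNA. It had 191, 174 and 176 CPM in sgRNA 11 cells, 221, 229 and 216 CPM in sgRNA 15 cells, and 189, 189 and 181 CPM in safe cells. The sgRNA 15 libraries stood above all others, while sgRNA 11 and safe libraries overlapped. It rose 1.19-fold with sgRNA 15 (log2 fold change 0.25 ± 0.03 SE, edgeR adjusted p = 3.93e-12), and its value with sgRNA 11 was -0.05 ± 0.03 (edgeR adjusted p = 0.163). Without sgRNA 11 replicate 1 that value was -0.08 (edgeR adjusted p = 0.0187), and without safe replicate 3 it was -0.08 (edgeR adjusted p = 0.0292). Over all 18 alternatives its adjusted p ran from 0.0187 to 0.696.

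Tlr9 (ENSMUSG00000045322, chr9:106222598-106226883, plus strand) encodes the receptor for unmethylated CpG DNA. It had 53.6, 54.3 and 53.3 CPM in sgRNA 11 cells, 43.3, 47.8 and 43.5 CPM in sgRNA 15 cells, and 47.8, 50.0 and 51.2 CPM in safe cells. The sgRNA 11 libraries lay above all others, and the highest sgRNA 15 library reached the lowest safe library. Its log2 fold change was 0.12 ± 0.05 SE with sgRNA 11 (edgeR adjusted p = 0.0286) and -0.14 ± 0.05 with sgRNA 15 (edgeR adjusted p = 0.0109), and it was -0.01 ± 0.04 for the mean of both guides (edgeR adjusted p = 0.819). With offsets for GC content and length the value for the mean of both guides was -0.14 and passed the test (edgeR adjusted p = 0.00174), within a range of 0.00174 to 0.984 over 17 alternatives. Both calls against safe cells were lost when single libraries were left out. With sgRNA 11 the edgeR adjusted p was 0.145, 0.0705, 0.0641 and 0.0609 without safe replicate 1, safe replicate 2, sgRNA 11 replicate 2 and sgRNA 11 replicate 3, and offsets for GC content and length turned the sign to -0.04. With sgRNA 15 the edgeR adjusted p was 0.0690 without sgRNA 15 replicate 1. Over all 18 alternatives the adjusted p ran from 0.00508 to 0.418 with sgRNA 11 and from 1.22e-05 to 0.0690 with sgRNA 15.

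**Figure D1:**
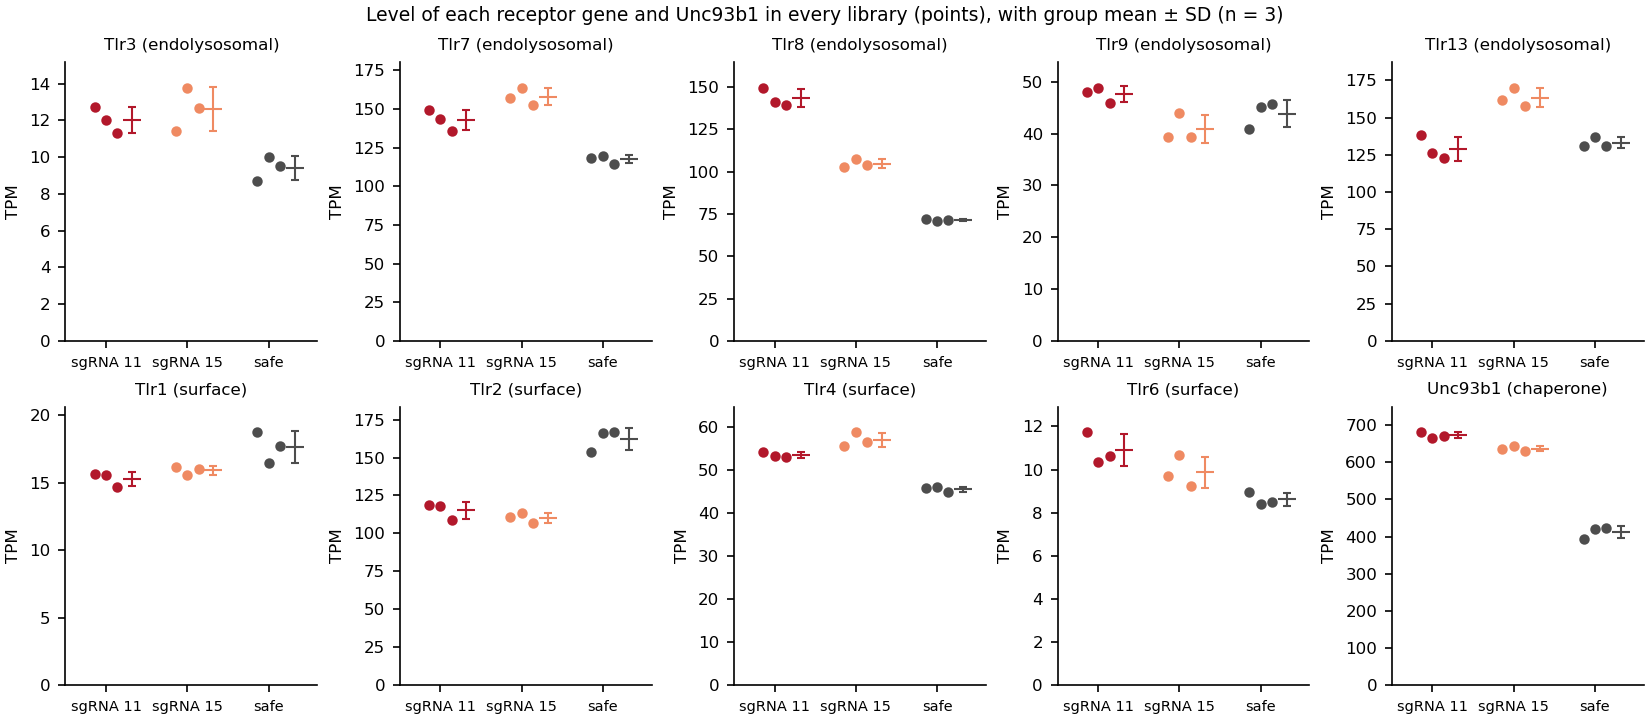
Level of each gene in TPM (vertical axes, linear from 0) in every library of sgRNA 11, sgRNA 15 and safe cells, with the group mean ± SD (n = 3) beside the points. Unc93b1 lies at 673 and 637 TPM with the guides and 412 TPM in safe cells, Tlr8 falls into 3 separate levels, and Tlr2 is the surface receptor that lies well below the safe libraries.

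Tlr2 fell with both guides and was the receptor with the largest decrease. This gene (ENSMUSG00000027995, chr3:83836272-83841767, minus strand) encodes the shared subunit of the lipopeptide receptors. It had 115, 114 and 109.8 CPM in sgRNA 11 cells, 106, 107 and 102 CPM in sgRNA 15 cells, and 156, 160.2 and 162 CPM in safe cells. All libraries of both guides were far below the safe libraries, and the sgRNA 15 libraries were below the sgRNA 11 libraries. The level with sgRNA 11 was 0.708 times that of safe cells (log2 fold change -0.50 ± 0.03 SE, edgeR adjusted p = 4.45e-25), and with sgRNA 15 it was 0.659 times (-0.60 ± 0.03, edgeR adjusted p = 1.07e-29).

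The partners of TLR2 are encoded by neighbouring genes on the minus strand of chromosome 5, Tlr1 (ENSMUSG00000044827, chr5:64924679-64933563) and Tlr6 (ENSMUSG00000051498, chr5:64952031-64960097). They are close copies, and reads that align to both are lost from the counts, so both levels are uncertain. Tlr1 had 16.8, 16.6 and 16.4 CPM in sgRNA 11 cells, 17.2, 16.3 and 17.1 CPM in sgRNA 15 cells, and 21.1, 17.6 and 19.1 CPM in safe cells. All libraries of the guides were below the safe libraries, but the safe libraries were widely spread. Its log2 fold change was -0.22 ± 0.08 SE with sgRNA 11 (edgeR adjusted p = 0.0111) and -0.20 ± 0.08 with sgRNA 15 (edgeR adjusted p = 0.0202). Without safe replicate 1 both calls were lost, with -0.14 for sgRNA 11 (edgeR adjusted p = 0.165) and -0.13 for sgRNA 15 (edgeR adjusted p = 0.199), and the sgRNA 15 call was also lost without sgRNA 15 replicate 2 (-0.18, edgeR adjusted p = 0.0728). Over all 18 alternatives its adjusted p ran from 0.00210 to 0.165 with sgRNA 11 and from 0.00228 to 0.199 with sgRNA 15. Tlr6 moved the other way. It had 14.1, 12.3 and 13.3 CPM in sgRNA 11 cells, 11.5, 12.4 and 11.0 CPM in sgRNA 15 cells, and 11.2, 10.0 and 10.2 CPM in safe cells. The sgRNA 11 libraries lay above the safe libraries, and the sgRNA 15 libraries overlapped both other groups. Its log2 fold change was 0.34 ± 0.09 SE with sgRNA 11 (edgeR adjusted p = 0.00109) and 0.15 ± 0.10 with sgRNA 15 (edgeR adjusted p = 0.167). For the mean of both guides it was 0.24 ± 0.08 (edgeR adjusted p = 0.00692), and 0.20 without safe replicate 2 (edgeR adjusted p = 0.0614), with a range of 0.00187 to 0.0614 over 17 alternatives.

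Tlr4 (ENSMUSG00000039005, chr4:66827584-66930284, plus strand), the lipopolysaccharide receptor gene, rose with both guides. It had 97.0, 94.6 and 98.4 CPM in sgRNA 11 cells, 97.8, 102 and 100.04 CPM in sgRNA 15 cells, and 85.6, 81.6 and 80.4 CPM in safe cells. All 6 libraries with a guide against Slc12a9 exceeded all safe libraries, and the guides overlapped. The rise was 1.17-fold with sgRNA 11 (log2 fold change 0.23 ± 0.04 SE, edgeR adjusted p = 1.18e-07) and 1.21-fold with sgRNA 15 (0.28 ± 0.04, edgeR adjusted p = 5.34e-10).

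**Figure D2:**
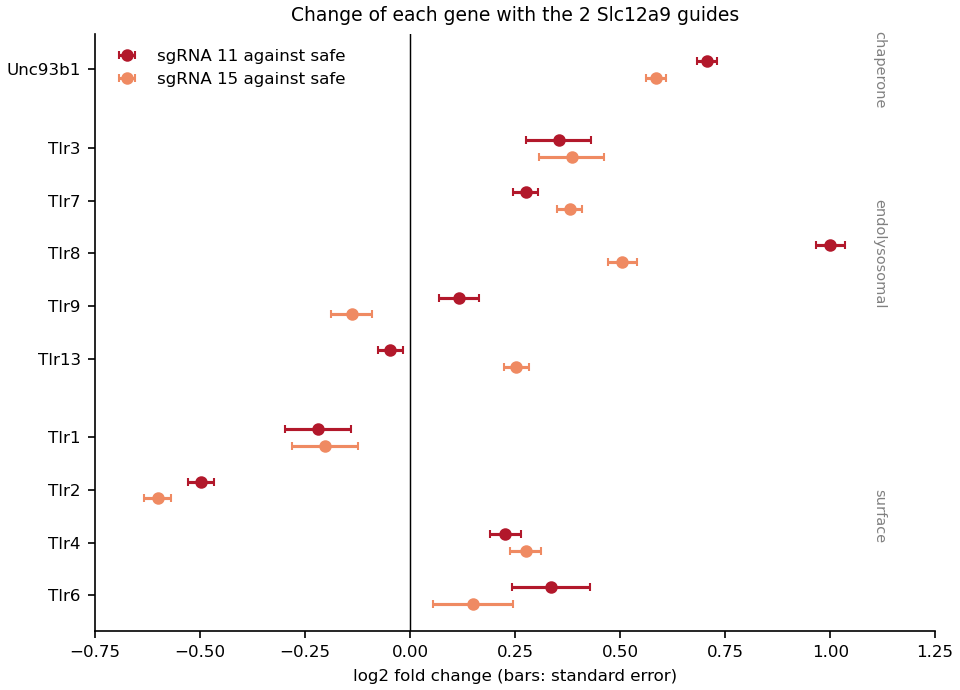
Log2 fold change of each gene against safe cells (horizontal axis) with sgRNA 11 and sgRNA 15, with bars for the standard error, in rows for the chaperone, the endolysosomal receptors and the surface receptors. Tlr8 with sgRNA 11 lies farthest right at 1.00, Tlr2 with sgRNA 15 farthest left at -0.60, and the guides lie on opposite sides of 0 for Tlr9 and Tlr13.

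Seen as groups, 4 of the 5 endolysosomal receptors rose with sgRNA 11 and none fell, and with sgRNA 15 4 rose and 1 fell. Of the 4 surface receptors, 2 rose and 2 fell with sgRNA 11, and 1 rose and 2 fell with sgRNA 15. Among all tested genes, 33.3% rose and 32.4% fell with sgRNA 11, and 32.2% rose and 30.7% fell with sgRNA 15. The median log2 fold change of the endolysosomal receptors was 0.28 with sgRNA 11 and 0.38 with sgRNA 15, beside 0.01 for all tested genes in each comparison. The median of the surface receptors was 0.00 with sgRNA 11 and -0.03 with sgRNA 15, the second of which was 0.01 when only library size was scaled. These medians describe short lists and carry no test. They, the surface counts and the sums below leave out the flagellin receptor gene Tlr5, which had 0.91 with sgRNA 11 and -0.12 with sgRNA 15. With Tlr5 in the list, the middle surface value with sgRNA 11 would be that of Tlr4, 0.23, beside the endolysosomal 0.28. To the surface sums Tlr5 would add 9.37 TPM in sgRNA 11 cells and 4.96 TPM in safe cells. The surface counts and median with sgRNA 11 thus depend on which genes are listed.

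Levels can be compared between genes in TPM, which divides by exon length. In sgRNA 11 cells, after Unc93b1 at 673 ± 8.12 TPM (SD, n = 3), the order was Tlr8 (144), Tlr7 (143), Tlr13 (129), Tlr2 (115), Tlr4 (53.5), Tlr9 (47.6), Tlr1 (15.3), Tlr3 (12.01) and Tlr6 (10.9), and the libraries of Tlr8 and Tlr7, of Tlr7 and Tlr13, and of Tlr3 and Tlr6 overlapped. In sgRNA 15 cells, after Unc93b1 at 637 ± 6.98 TPM, it was Tlr13 (163), Tlr7 (158), Tlr2 (110.2), Tlr8 (105), Tlr4 (57.0), Tlr9 (40.8), Tlr1 (15.9), Tlr3 (12.6) and Tlr6 (9.87), with overlap between Tlr13 and Tlr7 and between Tlr2 and Tlr8. In safe cells, after Unc93b1 at 412 ± 16.5 TPM, it was Tlr2 (162), Tlr13 (133), Tlr7 (118), Tlr8 (71.4), Tlr4 (45.6), Tlr9 (43.9), Tlr1 (17.6), Tlr3 (9.41) and Tlr6 (8.62), with overlap between Tlr4 and Tlr9 and between Tlr3 and Tlr6. Tlr2 was therefore the most abundant receptor mRNA in safe cells, and stood below Tlr8, Tlr7 and Tlr13 in sgRNA 11 cells and below Tlr13 and Tlr7 in sgRNA 15 cells.

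Summed over each compartment, the endolysosomal receptors had 497, 472 and 455 TPM in sgRNA 11 cells, 472, 499 and 466 TPM in sgRNA 15 cells, and 371, 383 and 372 TPM in safe cells. The means were 475 ± 21.3, 479 ± 17.6 and 375 ± 6.43 TPM (SD, n = 3 each), which puts sgRNA 11 at 1.27 times and sgRNA 15 at 1.28 times the safe level. The surface receptors had 201, 197 and 187 TPM in sgRNA 11 cells, 192, 198 and 188 TPM in sgRNA 15 cells, and 227, 237 and 238 TPM in safe cells. Their means were 195 ± 6.89, 193 ± 5.01 and 234 ± 5.90 TPM, at 0.832 times the safe level with sgRNA 11 and 0.824 times with sgRNA 15. For both sums, all libraries of the guides lay on the same side of all safe libraries. The endolysosomal share of the summed receptor mRNA was 70.9 ± 0.359% with sgRNA 11, 71.3 ± 0.249% with sgRNA 15 and 61.6 ± 0.527% in safe cells. Tlr2 alone made up 59.1%, 57.1% and 69.3% of the surface sum in sgRNA 11, sgRNA 15 and safe cells, and Tlr4 made up 27.5%, 29.5% and 19.5%. In mean TPM, Tlr2 went from 162 in safe cells to 115 with sgRNA 11 and 110 with sgRNA 15. Tlr1 went from 17.6 to 15.3 and 15.9. Tlr4 rose from 45.6 to 53.5 and 57.0, and the mean of Tlr6 from 8.62 to 10.9 and 9.87. The lower surface sum thus rests mainly on Tlr2 and is not shared by Tlr4 or Tlr6. Tlr8 made up 30.2%, 21.9% and 19.0% of the endolysosomal sum in the same order of groups. The sums are dominated by the most abundant genes, so the mean log2 CPM over the genes of a group, which weights them equally, is given too. The endolysosomal mean exceeded the surface mean by 1.21 ± 0.02 with sgRNA 11, 1.20 ± 0.04 with sgRNA 15 and 0.83 ± 0.06 in safe cells on the log2 scale.

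**Figure D3:**
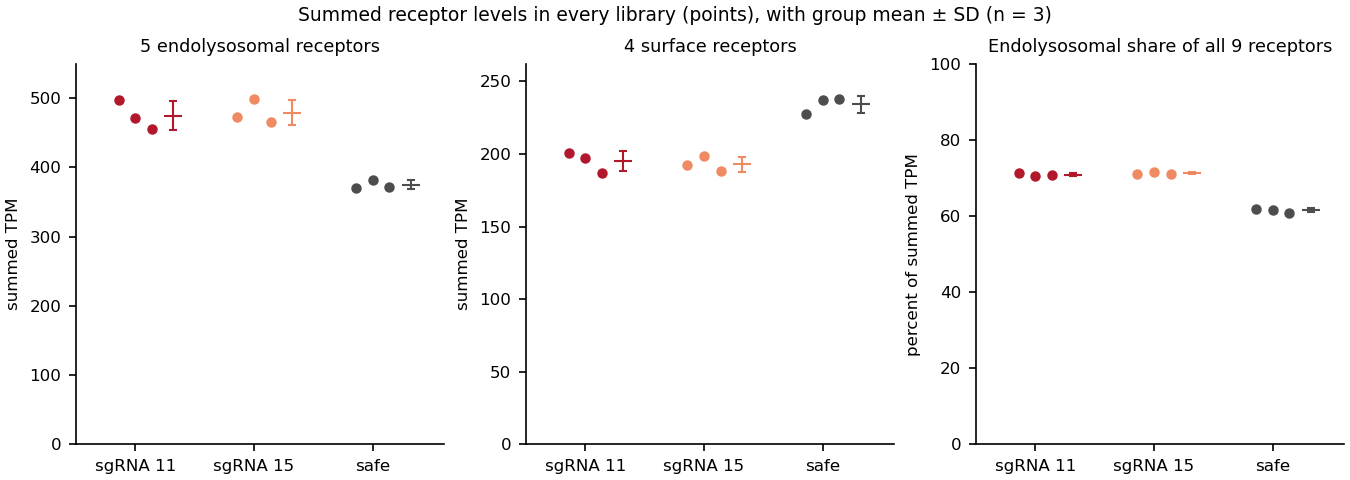
Summed TPM of the 5 endolysosomal receptors (left) and of the 4 surface receptors (middle), and the endolysosomal share in percent of both sums (right), in every library of sgRNA 11, sgRNA 15 and safe cells with the group mean ± SD (n = 3). The endolysosomal sums of both guides, 475 and 479 TPM, lie above the 375 TPM of safe cells, and the surface sums, 195 and 193 TPM, lie below the 234 TPM of safe cells. Tlr2 makes up most of the surface sum, and the means of Tlr4 and Tlr6 were higher with both guides.

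The guides were also compared with each other. In sgRNA 15 against sgRNA 11 cells, 2 of the 10 genes were higher, 4 were lower and 4 were not called, where 18% of all tested genes were higher and 15.5% lower. Tlr8 had the largest difference, at 0.709 times the sgRNA 11 level (log2 fold change -0.50 ± 0.03 SE, edgeR adjusted p = 1.09e-23). Tlr13 was at 1.23 times the sgRNA 11 level (0.30 ± 0.03, edgeR adjusted p = 1.89e-14) and Tlr9 was at 0.837 times (-0.26 ± 0.05, edgeR adjusted p = 1.10e-05). Unc93b1 (-0.12 ± 0.02, edgeR adjusted p = 1.37e-05), Tlr2 (-0.10 ± 0.03, edgeR adjusted p = 0.0112) and Tlr7 (0.10 ± 0.03, edgeR adjusted p = 0.00289) differed by less. The Tlr7 call was lost without sgRNA 15 replicate 2 (edgeR adjusted p = 0.0671), and with offsets for GC content and length, where its value was 0.01 (edgeR adjusted p = 0.791), and the Tlr2 call was lost without sgRNA 15 replicate 3 (edgeR adjusted p = 0.0545). Over all 18 alternatives the adjusted p ran from 0.000907 to 0.791 for Tlr7 and from 0.00306 to 0.0545 for Tlr2. Tlr1, Tlr3, Tlr4 and Tlr6 had values of 0.02 ± 0.08, 0.03 ± 0.08, 0.05 ± 0.04 and -0.19 ± 0.09, none of which passed the test.

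Of the other mouse Toll-like receptor genes, Tlr5, which encodes the flagellin receptor, had 15.0, 15.6 and 13.2 CPM in sgRNA 11 cells, 6.95, 7.23 and 7.26 CPM in sgRNA 15 cells, and 7.91, 8.14 and 7.18 CPM in safe cells. It rose 1.87-fold with sgRNA 11 (log2 fold change 0.91 ± 0.10 SE, edgeR adjusted p = 2.44e-13) and had -0.12 ± 0.11 with sgRNA 15 (edgeR adjusted p = 0.366). The difference between the guides was itself past the test, at -1.02 ± 0.10 for sgRNA 15 against sgRNA 11 (edgeR adjusted p = 1.74e-14). Tlr11 and Tlr12 had 0 counts in all 9 libraries, and a floor of 3 counts per library corresponds to 0.120 to 0.182 CPM.

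The proteins that process the endolysosomal receptors and their ligands were described from lists of pathway genes. All 5 tested genes for endolysosomal proteases rose with both guides, and their median log2 fold change was 0.53 for sgRNA 11 and 0.73 for sgRNA 15. Over the whole transcriptome, 33.3% of tested genes rose and 32.4% fell with sgRNA 11, and 32.2% and 30.7% with sgRNA 15. Ctsb had 3332, 3305 and 3342 CPM in sgRNA 11 cells, 5486, 5441 and 5477 CPM in sgRNA 15 cells and 2704, 2711 and 2733 CPM in safe cells, a rise of 0.29 ± 0.02 with sgRNA 11 (edgeR adjusted p = 1.87e-22) and of 1.01 ± 0.02 with sgRNA 15 (edgeR adjusted p = 8.99e-59). Cathepsin B, cathepsin L, cathepsin S and legumain are lysosomal cysteine proteases, and members of this set cleave the receptor ectodomains. Ctsl averaged 1147 ± 47.0, 1078 ± 24.6 and 681 ± 5.08 CPM, Ctss 569 ± 5.60, 664 ± 13.5 and 394 ± 12.4 CPM, and Lgmn 765 ± 14.9, 755 ± 7.58 and 571 ± 10.3 CPM in sgRNA 11, sgRNA 15 and safe cells (SD, n = 3 each). Among 4 tested nuclease genes, 2 rose and 1 fell with sgRNA 11, and 2 rose and none fell with sgRNA 15. The risers were Pld4 (log2 fold change 0.94 ± 0.02 with sgRNA 11 and 0.68 ± 0.02 with sgRNA 15) and Pld3 (0.76 ± 0.04 and 0.99 ± 0.04), which encode endolysosomal 5′ exonucleases that trim ligands of TLR9 and TLR7. Dnase2a, the lysosomal DNase gene, fell with sgRNA 11 (-0.29 ± 0.03) and had 0.00 ± 0.03 with sgRNA 15, and Rnaset2b, at 0.673, 0.507 and 0.398 CPM in sgRNA 11, sgRNA 15 and safe cells, was not called. Ctsb, Ctsl, Dnase2a and Rnaset2b share 12.8%, 26.8%, 30.0% and 20.4% of their exon length with another gene, which makes their levels uncertain.

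Genes for receptor folding and trafficking moved in both directions, as tested genes did as a whole. Of 13 tested, 4 rose and 7 fell with sgRNA 11, and 6 rose and 5 fell with sgRNA 15, with medians of -0.10 and 0.07. The shares of all tested genes were 33.3% higher and 32.4% lower with sgRNA 11, and 32.2% and 30.7% with sgRNA 15. Hsp90b1, which encodes the chaperone gp96 that folds most Toll-like receptors, averaged 397 ± 14.7, 426 ± 3.94 and 626 ± 25.6 CPM in sgRNA 11, sgRNA 15 and safe cells, and fell by 0.66 and 0.56 on the log2 scale with the guides (edgeR adjusted p = 9.61e-37 and 3.88e-32). Lrrc59, an endoplasmic reticulum protein gene tied to the export of nucleic acid receptors, fell by 0.64 and 0.47 with sgRNA 11 and sgRNA 15. The transporter genes Slc15a3 (-0.64 with sgRNA 11 and -0.43 with sgRNA 15) and Slc15a4 (-0.44 and -0.34), whose products carry histidine and peptides across endolysosomal membranes, also fell. Other genes of the list, named here after their values were seen, rose with both guides, among them Cnpy3 (0.28 with sgRNA 11 and 0.15 with sgRNA 15), whose product assists gp96, Ap3b1 (0.12 and 0.20), an adaptor complex subunit gene, and Rnf170 (0.41 and 0.55), a ubiquitin ligase gene. Hsp90b1 and Slc15a3 share 10.3% and 28.1% of their exon length with another gene.

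Among the listed co-receptor and surface accessory genes, more fell than rose. Of 7 tested, 4 fell and 1 rose with sgRNA 11, and 5 fell and 1 rose with sgRNA 15, with medians of -0.55 and -0.43. Beside this, 32.4% of all tested genes fell and 33.3% rose with sgRNA 11, and 30.7% and 32.2% with sgRNA 15. Cd14, whose product hands lipopolysaccharide to TLR4 and lipopeptides to TLR2, had 561, 561 and 583 CPM in sgRNA 11 cells, 647, 657 and 637 CPM in sgRNA 15 cells and 883, 894 and 900.2 CPM in safe cells. Its libraries did not overlap between any pair of groups, and it fell by 0.65 with sgRNA 11 and by 0.46 with sgRNA 15 on the log2 scale (edgeR adjusted p = 2.95e-42 and 3.38e-32). Hmgb1, a nuclear protein gene whose product can act as a danger signal, fell by 0.55 and 0.43. Cd36, also called lower with both guides, had few reads, at 0.278, 0.272 and 0.701 CPM in sgRNA 11, sgRNA 15 and safe cells. Ly86 was lower with sgRNA 15 (-0.61) and was not called with sgRNA 11 (-0.03). Cd180, a TLR-like surface receptor gene, fell by 0.70 with sgRNA 11 and by 0.16 with sgRNA 15. Itgam, the CD11b integrin gene, was the riser (0.75 and 0.17), but 68.7% of its exon length is shared with Gm49368 on the same strand, so its level is uncertain. Tlr4 thus rose while Cd14 fell, and Ly96, the MD-2 gene, at 5.82 ± 0.304, 6.98 ± 1.11 and 6.23 ± 0.0331 CPM in sgRNA 11, sgRNA 15 and safe cells, was not called with either guide.

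Downstream of the receptors, the adaptor and proximal signalling genes moved in both directions, as tested genes did as a whole. Of 23 tested, 10 rose and 12 fell with sgRNA 11, and 7 rose and 12 fell with sgRNA 15, with a median of -0.14 for each. In the same comparisons 33.3% of all tested genes rose and 32.4% fell with sgRNA 11, and 32.2% and 30.7% with sgRNA 15. Myd88, the adaptor gene of all these receptors except Tlr3, averaged 65.7 ± 3.66, 55.0 ± 1.26 and 87.5 ± 1.45 CPM in sgRNA 11, sgRNA 15 and safe cells, and fell by 0.41 and 0.67 on the log2 scale (edgeR adjusted p = 9.82e-15 and 5.56e-25). Ikbke, a kinase gene, fell by 0.59 and 0.44 with sgRNA 11 and sgRNA 15, and Tab2, whose product binds the kinase TAK1, fell by 0.35 and 0.41. Ticam2, the TLR4 adaptor gene TRAM, averaged 11.2 ± 0.626, 10.8 ± 0.441 and 3.10 ± 0.203 CPM in sgRNA 11, sgRNA 15 and safe cells, a rise of 1.86 ± 0.12 and 1.80 ± 0.13. It shares 14.5% of its exon length with Tmed7 on the same strand, and Myd88 shares 11.3% with another gene. Among 10 negative regulators, 1 rose and 5 fell with sgRNA 11, and 2 rose and 3 fell with sgRNA 15, with medians of -0.21 and -0.04. Tnfaip3, the A20 gene, had 1.42 ± 0.222, 2.18 ± 0.835 and 6.62 ± 0.256 CPM in sgRNA 11, sgRNA 15 and safe cells, while Sigirr, an inhibitory receptor gene of the same superfamily, rose by 0.98 and 1.02. Tollip and Il1rl1 fell by 0.38 and 0.32 with sgRNA 11 and by 0.10 and 0.49 with sgRNA 15.

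The genes that these receptors induce early were mostly lower with both guides. Of 15 tested, 12 fell and 2 rose with sgRNA 11, and 13 fell and 1 rose with sgRNA 15, with medians of -0.75 and -0.85. Shares over all tested genes were 32.4% lower and 33.3% higher with sgRNA 11, and 30.7% and 32.2% with sgRNA 15. Tnf had 31.5, 32.3 and 33.0 CPM in sgRNA 11 cells, 27.7, 28.9 and 29.4 CPM in sgRNA 15 cells and 57.7, 60.7 and 60.0 CPM in safe cells, a decrease to 0.543 and 0.482 times the safe level (edgeR adjusted p = 1.07e-27 and 6.78e-32). The chemokine genes Ccl3 (-2.07 ± 0.05 with sgRNA 11 and -0.89 ± 0.04 with sgRNA 15) and Ccl4 (-2.22 ± 0.05 and -0.91 ± 0.04) fell more with sgRNA 11, and the difference between the guides passed the test for both, at 1.18 and 1.30 for sgRNA 15 against sgRNA 11 (edgeR adjusted p = 9.74e-37 and 4.14e-36). Zfp36, a gene for an mRNA decay factor, fell by 0.75 and 1.04. The genes that rose, chosen here after their values were seen, were Socs3 (0.41) and Dusp1 (0.17) with sgRNA 11 and Egr1 (0.67) with sgRNA 15. Il1b, Il6, Il12b, Ifnb1 and Nos2 were below the filter, with at most 5, 2, 2, 1 and 3 counts in any library.

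**Figure D4:**
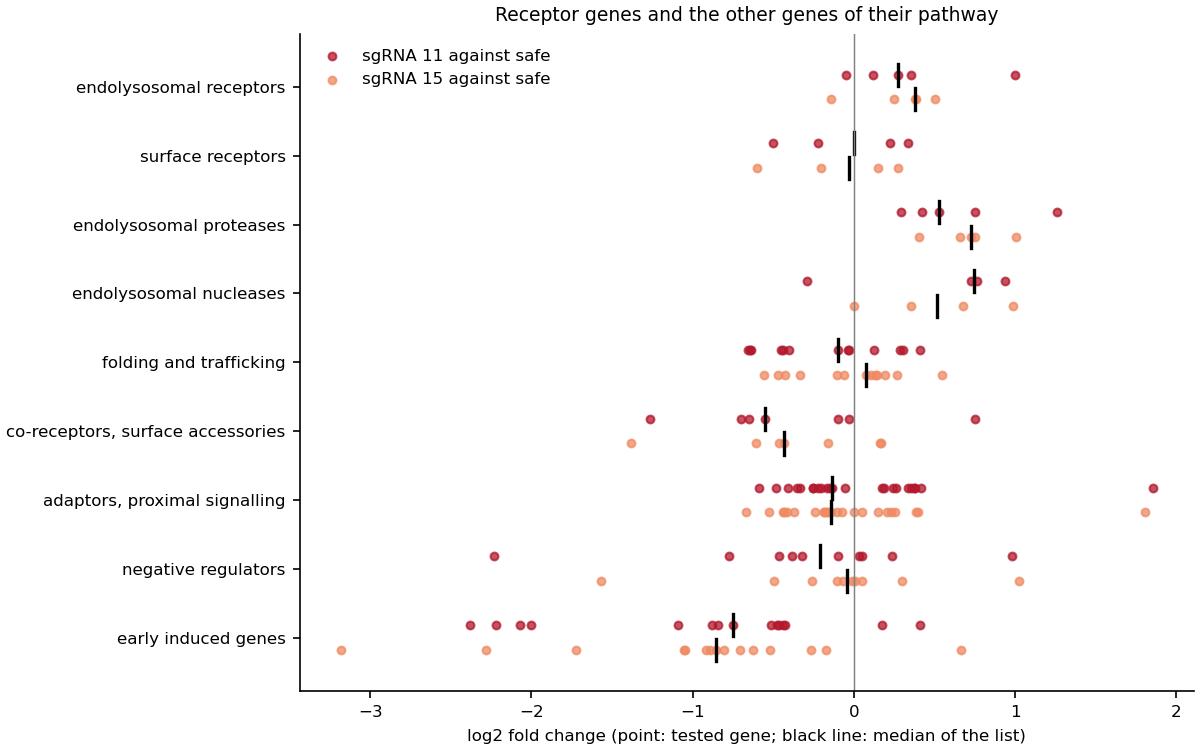
Log2 fold change against safe cells (horizontal axis) of every tested gene of each pathway list with sgRNA 11 and sgRNA 15, with a black line at the list's median. The endolysosomal proteases lie right of 0 with both guides (medians 0.53 and 0.73), and most early induced genes lie left of it (medians -0.75 and -0.85).

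The genes whose log2 CPM followed each leading member most closely over the 9 libraries were ranked among 9330 genes. For Unc93b1 these were Crlf2, Rinl and App, each with a Pearson r of 0.998 or above. For Tlr2, the most abundant surface receptor by mean TPM over all 9 libraries, they were Ube2o, B4galt6 and Hspa8, with r of 0.996 or above. For Tlr13, the most abundant endolysosomal receptor by the same mean though not in sgRNA 11 cells, they were Msh3 (0.983), Dhrs9 (0.979) and C3ar1 (0.975). The 9 libraries form 3 groups, and r mostly repeats the order of the group means.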

How the data were processed

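The 9 libraries were made from poly(A)-enriched, ribosome-depleted RNA of J774A.1 cells, per the labels' protocols. The authors deposited raw gene counts; the submitters' processing notes name STAR, HTSeq and mm10. How HTSeq was run (annotation, strand, overlap mode) is not given in the sources used here. The tallies of reads in no gene, 19.3 to 20.7% of each table, stayed out of library sizes and tests. Ambiguous and multiply aligned reads are lost, which lowers overlapping genes and close copies.

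Symbols, positions and exon lengths came from GENCODE M21 (the same build), which named 55227 of 55487 identifiers. Of 130 list entries, 129 matched 1 identifier, and Tasl is not analysed here. A gene is called uncertain where another gene covers 10% or more of its exons.

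The tool edgeR 4.0.16 (R 4.3.3) tested the counts. They were filtered with filterByExpr (minimum count 10), scaled by TMM (factors 0.979 to 1.02), and fitted with robust quasi-likelihood over all 9 libraries (6 residual degrees of freedom). Tests were 2-sided for 4 contrasts, with Benjamini-Hochberg adjustment over 13453 genes in each and a threshold of 0.05. Standard errors came from the F statistics. The fit was first run on simulated counts in which a small share of genes changed in the sgRNA 11 libraries. That setting does not probe the scaling or the calls when as many genes change as here. Chi-square values of replicate pairs, over genes of 20 or more counts, were well above sampling noise (1.76 to 6.83 per degree of freedom). The highest were those of safe replicate 1 with safe replicates 2 and 3 (6.83 and 5.16), beside 2.16 between safe replicates 2 and 3. CPM is scaled by TMM, and TPM uses merged exon length. Correlations used log2 CPM with a prior count of 2.

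The members, lists and tests were chosen with earlier results of these data known. Named genes were all members, Slc12a9, the other mouse Toll-like receptors, up to 4 genes per pathway list (those of lowest p when the guides are averaged), and 3 genes most correlated with each of Unc93b1, Tlr2 and Tlr13. Alternatives were other size factors, library size only, offsets for GC content and length, other filters (none, or a mean of at least 5 CPM), a replicate block, only the compared groups, limma-voom (limma 3.58.1), DESeq2 1.42.0, transcript length for TPM, and each library left out. Counting error grows as reads get fewer, and with sgRNA 11 the standard error was 0.09 for Tlr6 and 0.02 for Unc93b1. The floor for a count of 0 is 3 counts.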

Additional observations from a re-analysis of the deposited data

Results flagged for a closer look

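For 6 of the genes the guides differed from each other by a test of the difference itself, sgRNA 15 against sgRNA 11 (edgeR quasi-likelihood test, adjusted over all tested genes). Unc93b1 was lower with sgRNA 15, with a log2 fold change of -0.12 (edgeR adjusted p = 1.37e-05), though it rose with both guides. Tlr8 was lower with sgRNA 15 by the widest margin, -0.50 (edgeR adjusted p = 1.09e-23), with all 3 sgRNA 15 libraries below all 3 sgRNA 11 libraries. Tlr9 was lower, -0.26 (edgeR adjusted p = 1.10e-05), and its group means lay on opposite sides of safe cells with the guides. Its sgRNA 15 and safe libraries overlapped, and offsets for GC content and length turned its sgRNA 11 value against safe cells to -0.044. Both of its calls against safe cells were lost under some alternatives. Tlr13 was higher with sgRNA 15, 0.30 (edgeR adjusted p = 1.89e-14), and Tlr7 was higher, 0.10 (edgeR adjusted p = 0.00289). The Tlr7 difference was 0.01 with offsets for GC content and length (edgeR adjusted p = 0.791) and 0.08 without sgRNA 15 replicate 2 (edgeR adjusted p = 0.0671), in a range of 0.000907 to 0.791 over 18 alternatives. Tlr2 was lower with sgRNA 15, -0.10 (edgeR adjusted p = 0.0112), and its call was lost without sgRNA 15 replicate 3 (-0.09, edgeR adjusted p = 0.0545, range 0.00306 to 0.0545 over 18 alternatives). The spread of the libraries around these differences is given with the values above, and their cause was not tested.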

How the results depend on the processing

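The counts of genes called and of members called stayed within 1.5 times under every alternative run. Members called were 7 to 10 with sgRNA 11, 7 to 9 with sgRNA 15, 8 to 10 for the mean of both guides and 5 to 6 between the guides. Same-numbered libraries did not deviate together (r of -0.00774 to 0.0576 over 9 pairs), and with the replicate block 9, 9, 9 and 6 members were called, as without it. Of the log2 fold changes, Tlr9 for the mean of both guides turned to 0.0060 with the filter on a mean of 5 CPM and 0.024 with library size only, and ranged from -0.043 to 0.0039 when single libraries were left out (positive without sgRNA 15 replicate 1). Offsets for GC content and length gave it -0.14 (edgeR adjusted p = 0.00174, range 0.00174 to 0.984 over 17 alternatives). They turned Tlr9 with sgRNA 11 to -0.044 and, for sgRNA 15 against sgRNA 11, Tlr1 to -0.039, Tlr4 to -0.062 and Tlr3 to -0.072, and gave Tlr6 -0.24 (edgeR adjusted p = 0.0394, range 0.0394 to 0.316 over 18 alternatives). Between the guides, Tlr1 ranged from -0.0084 (without sgRNA 15 replicate 1) to 0.035, and Tlr3 from -0.043 (without sgRNA 15 replicate 2) to 0.091, over the libraries left out. The surface median with sgRNA 15 was 0.012 with library size only and -0.092 with the GC and length offsets, which also gave -0.023 for the surface median of both guides, 0.35 for the endolysosomal median with sgRNA 11 and -0.072 for it between the guides. With the longest transcript as length, summed TPM was 166, 165 and 194 for surface and 382, 386 and 301 for endolysosomal receptors in sgRNA 11, sgRNA 15 and safe cells. The call of Tlr1 with sgRNA 15 was lost with library size only (edgeR adjusted p = 0.0594), as was that of Tlr9 with sgRNA 15 (0.0683), and DESeq2 lost Tlr9 with sgRNA 11 (adjusted p = 0.0858). The causes were not tested. Tlr6, Tlr1 and Tlr3 had the fewest reads, which limits their precision.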

Other observations

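Some genes of the pathway lists moved in opposite directions with the guides, and Irf7, Irf5 and Sdcbp are given here as examples chosen after their values were seen. Irf7, the interferon regulatory factor gene downstream of TLR7 and TLR9, had 49.5, 49.0 and 47.9 CPM in sgRNA 11 cells, 27.0, 25.7 and 28.4 CPM in sgRNA 15 cells, and 38.9, 39.9 and 37.2 CPM in safe cells. It rose with sgRNA 11 (log2 fold change 0.33, edgeR adjusted p = 2.54e-08), fell with sgRNA 15 (-0.52, edgeR adjusted p = 1.68e-13), and differed between sgRNA 15 and sgRNA 11 by -0.86 (edgeR adjusted p = 3.40e-24). Irf5, which encodes another transcription factor of this signalling, averaged 569.7 ± 2.22 CPM in sgRNA 11 cells, 427 ± 6.14 CPM in sgRNA 15 cells and 505 ± 11.9 CPM in safe cells (SD, n = 3 each). Its log2 fold change was 0.18 with sgRNA 11 and -0.24 with sgRNA 15. Irf5 shares 14.1% of its exon length with Tnpo3 on the opposite strand, which makes its level uncertain. Sdcbp, which encodes syntenin-1, a binding partner of UNC93B1, had the opposite order, at 334 ± 5.77, 550.1 ± 8.82 and 456 ± 12.1 CPM in sgRNA 11, sgRNA 15 and safe cells, with log2 fold changes of -0.45 and 0.27.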
